A study of Mus musculus with 6 samples.

Results

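Protocadherins are the largest group of cadherin adhesion molecules. In the deposited table, 58 of 20764 rows carry a protocadherin symbol, and they were selected on that symbol. The family itself was chosen from results of the same contrast that is described here, so the calls for its members are a description and support nothing further. The rows are 14 genes of the alpha cluster, 22 of the beta cluster, 15 of the gamma cluster and 7 non-clustered genes, which belong to none of these arrays. Of the 58, 44 passed the filter on low values (at least 10 in at least 3 libraries) and 14 did not.

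Total RNA was sequenced in 6 libraries of the mouse line 266.6, labelled as an acinar tumour line. This is a single line, known to come from a pancreatic acinar tumour of a mouse carrying a viral T antigen transgene under an elastase promoter, and both groups share that origin. The 3 control libraries are labelled only as controls, with no separate entry for their medium or time in culture, and the 3 CAF_CM libraries come from cells kept for as long as 40 days in medium conditioned by cancer-associated fibroblasts. The study asks how such medium alters acinar cells. No label says that libraries of a group are separate cultures, so the p-values measure the spread between libraries, which may be technical.

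In the clustered families, genes stand in tandem arrays. Each alpha or gamma variable exon has its own promoter and is spliced to constant exons shared by its cluster, whereas each beta gene is a single coding exon without a constant part. In neurons, CTCF, cohesin and DNA methylation set which promoters a cell uses, and the resulting mixture of proteins, which bind like to like, marks the cell surface. Non-clustered protocadherins are separate genes with their own intracellular tails, known mainly from the nervous system, the inner ear and some epithelia.

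By the class median, non-clustered genes differed more between the groups than clustered ones. Promoter sequences of 4 of the 5 that were called changed are shown because these genes rose or fell alongside one another from separate loci, Pcdh10 and Pcdh9 upward, Pcdh15 and Pcdh8 downward. The table of RefSeq promoters used here (GRCm38.p6) holds windows for 6 of the 58 members, none of them clustered and Pcdh1 not among them, and the windows hold the 250 bases before it, 5′ to 3′ on the gene's strand, with every CG and every TATAAA in capitals. They lie at chr3:45378148-45378397 on the plus strand (Pcdh10), chr14:93890680-93890929 on the minus strand (Pcdh9, the first listed of its 2 starts), chr10:73821617-73821866 on the plus strand (Pcdh15) and chr14:79771313-79771562 on the minus strand (Pcdh8).
Pcdh10: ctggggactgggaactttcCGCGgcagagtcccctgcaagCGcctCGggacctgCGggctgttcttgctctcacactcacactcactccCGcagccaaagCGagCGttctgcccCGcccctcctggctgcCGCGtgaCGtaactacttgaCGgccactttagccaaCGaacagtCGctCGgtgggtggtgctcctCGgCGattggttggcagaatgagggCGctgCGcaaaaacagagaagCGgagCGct
Pcdh9: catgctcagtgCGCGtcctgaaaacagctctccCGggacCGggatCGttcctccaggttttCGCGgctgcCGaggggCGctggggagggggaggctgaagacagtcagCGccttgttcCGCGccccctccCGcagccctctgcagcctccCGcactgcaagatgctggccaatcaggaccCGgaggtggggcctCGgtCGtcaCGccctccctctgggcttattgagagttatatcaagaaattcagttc
Pcdh15: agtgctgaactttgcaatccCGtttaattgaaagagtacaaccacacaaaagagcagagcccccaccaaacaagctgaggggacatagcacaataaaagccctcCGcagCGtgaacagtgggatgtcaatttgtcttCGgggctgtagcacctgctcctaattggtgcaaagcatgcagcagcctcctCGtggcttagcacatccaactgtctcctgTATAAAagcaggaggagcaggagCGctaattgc
Pcdh8: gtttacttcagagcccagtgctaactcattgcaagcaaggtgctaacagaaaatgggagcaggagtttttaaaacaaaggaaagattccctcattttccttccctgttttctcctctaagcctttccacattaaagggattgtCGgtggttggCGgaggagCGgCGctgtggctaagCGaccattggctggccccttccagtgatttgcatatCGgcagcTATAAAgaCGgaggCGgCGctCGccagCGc

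CpG content varied over the 6 windows. The Pcdh10 window holds 22 CpG, a number reached by 14.8% of the 32851 RefSeq windows of this length, and the Pcdh9 window holds 18, reached by 21.7%. Pcdh8 has 11 (reached by 35.6%) and Pcdh15 has 6, which is the median of all windows and is reached by 50.4%. The window of Pcdh18, which was not called, holds the most, 23, and that of the untested Pcdh19 holds 16. TATAAA, searched on both strands, is found in 12.4% of all windows. It begins 30 bases before the start in Pcdh8 and 33 bases before it in Pcdh15, and is in none of the other 4 windows. The RefSeq start of Pcdh15 lies inside a longer GENCODE M21 gene model, so another start may be in use. These matches describe 6 windows and were given no test.

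The depth ran from 18622370 to 21002226 reads a library. Of 16169 genes tested, limma on log2(value + 1), with Benjamini-Hochberg adjustment over all of them and a threshold of 0.05, called 34.4% changed, 18.3% higher in CAF_CM and 16.1% lower. In 47.7% the 3 libraries of one group all lay above those of the other. The median log2 fold change of all genes was 0.00. The CAF_CM libraries differed more among themselves than the controls did, with a biological coefficient of variation of 8.23% against 2.2%.

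Against that background, 12 of the 44 tested protocadherins (27.3%) were called, 4 higher and 8 lower. Among non-clustered genes 5 of 6 were called (83.3%), 3 higher and 2 lower, their median log2 fold change was 0.28 (0.172 after a correction for length and GC), and the median absolute value was 0.58. Among clustered genes it was 7 of 38 (18.4%), 1 higher and 6 lower, with a median of -0.06 and a median absolute change of 0.21, beside 0.19 over all genes tested. The 2 classes also differed in level and precision. The median tested clustered gene had a value of 142 and a 95% interval reaching 0.30 to either side, against 290 and 0.24 for the non-clustered genes. The difference between the classes was not tested, since the family was picked from this contrast.

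**Figure D1:**
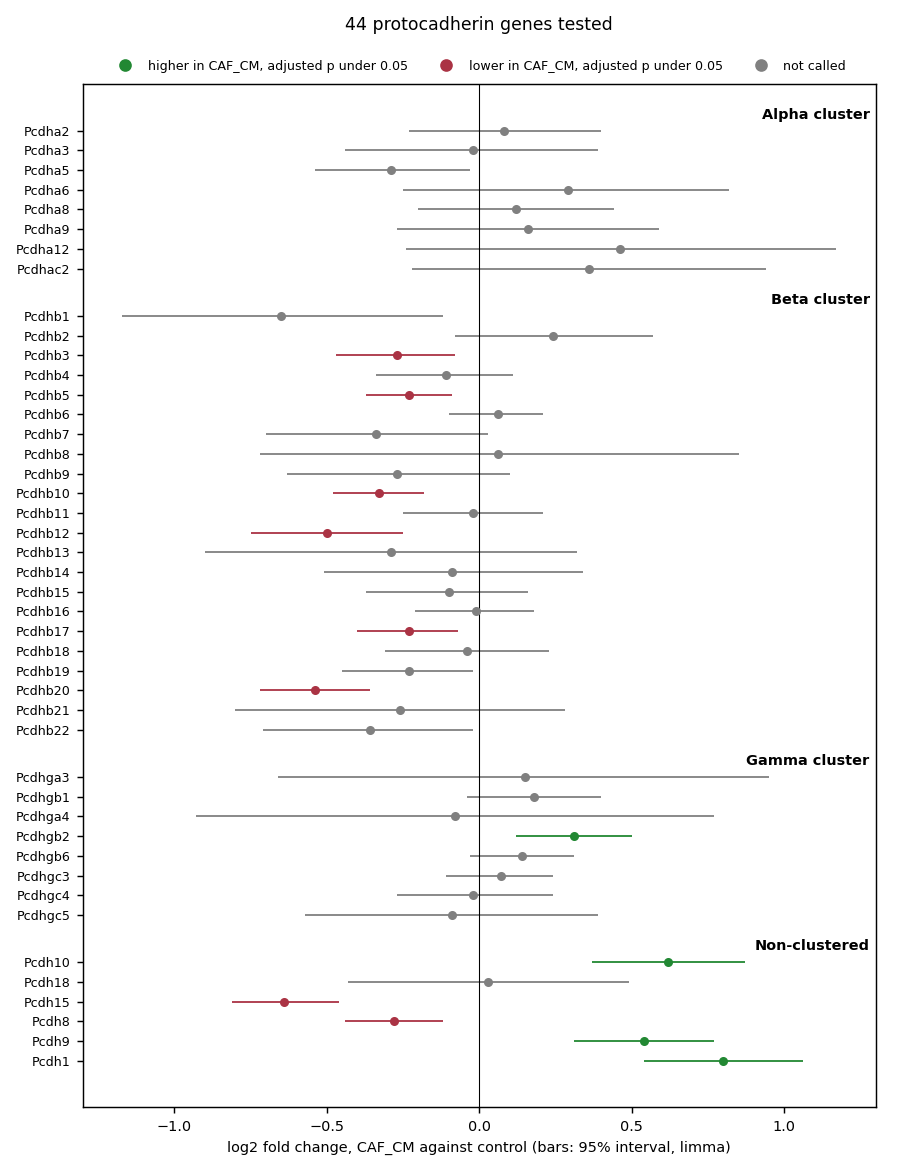
The log2 fold change of each of the 44 tested protocadherins, CAF_CM against control, with its 95% interval from limma (3 libraries a group). Of the 6 non-clustered genes 5 are coloured as called, and the called beta genes all lie to the left of 0.

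Pcdh1, a protocadherin of epithelia including the airway, had the largest rise in the family. Its normalized read counts were 228.3, 202 and 243.9 in control replicates 1 to 3 and 339.8, 470.1 and 375.9 in the CAF_CM replicates. The groups did not overlap, and CAF_CM replicate 2 was the highest. The mean went from 224.7 ± 21.2 to 395.2 ± 67.3 (SD, n = 3 a group), a log2 fold change of 0.80 (SE 0.12, limma adjusted p = 5.10e-04).

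Pcdh10, whose tail recruits the WAVE regulatory complex, counted 202.3, 201 and 241.8 in the controls and 283.2, 362.4 and 350.2 in CAF_CM. The lowest treated library was again above the highest control. The log2 fold change was 0.62 (SE 0.11, limma adjusted p = 0.00168). Pcdh9, of the other delta subgroup and expressed mainly in brain, counted 202.3, 235.7 and 199.9 in the controls and 280.1, 300.7 and 347.4 in CAF_CM. All treated libraries exceeded all controls here too. Its log2 fold change was 0.54 (SE 0.10, limma adjusted p = 0.00246).

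Pcdh15 forms, with Cdh23, the tip link of sensory hair cells, and it fell. Its values were 366, 366.2 and 388.3 in the controls and 231.7, 232.1 and 255.3 in CAF_CM. Spread within a group was small against the gap between groups, from 373.5 ± 12.8 to 239.7 ± 13.5. The log2 fold change was -0.64 (SE 0.08, limma adjusted p = 1.91e-04). Its partner Cdh23 was near the detection limit, at 21.07 ± 7.63 in control and 19.28 ± 6.04 in CAF_CM, and was not called.

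Pcdh8, known from the paraxial mesoderm and the synapse, was the non-clustered gene with the highest level per length. It counted 441.1, 426.4 and 463.7 in the controls and 377.9, 344.7 and 372.1 in CAF_CM, so the groups did not overlap. The log2 fold change was -0.28 (SE 0.07, limma adjusted p = 0.0117). Without control replicate 3 the adjusted p was 0.0654. Pcdh18, a low gene at 40.66 ± 6.78 in control and 41.96 ± 10.4 in CAF_CM, was not called (log2 fold change 0.03, 95% interval -0.43 to 0.49).

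**Figure D2:**
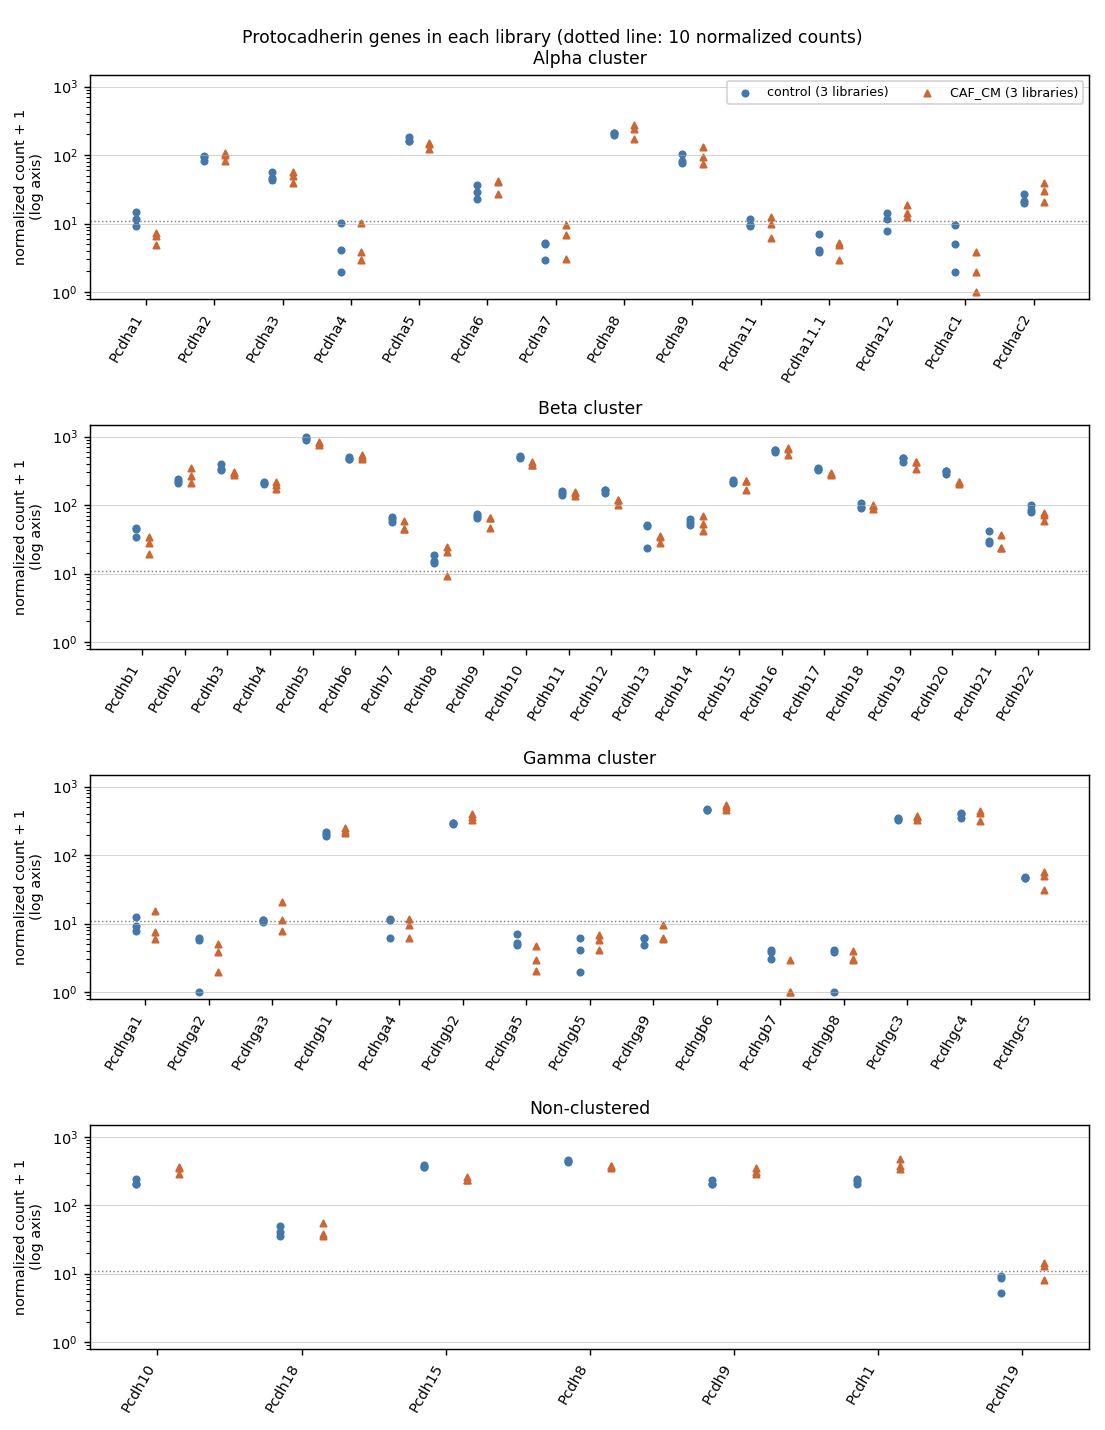
Normalized read counts plus 1, on a log axis, of all 58 protocadherin rows, each point 1 library (3 a group), with a dotted line at the filter's 10 counts. For Pcdh1, Pcdh10 and Pcdh9 all CAF_CM points lie above the control points, for Pcdh15 and Pcdh8 below them.

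The beta cluster leaned downward. Of its 22 genes, all tested, 6 were called lower (27.3%) and none higher. Of all genes tested, 16.1% were called lower and 34.4% in either direction. A negative log2 fold change was found for 19 of the 22, and the median was -0.23 (-0.139 without CAF_CM replicate 1). In 10 of the 22 every CAF_CM library lay below every control, as in 22.9% of all genes tested. The largest called decrease was that of Pcdhb20, with 288, 313.2 and 316.1 in the controls and 214.2, 202.7 and 213.6 in CAF_CM. Both groups were tight and well apart, and the log2 fold change was -0.54 (SE 0.08, limma adjusted p = 6.30e-04).

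Like their neighbours, the next beta genes encode adhesion proteins without the constant tail. Pcdhb12 counted 164.7, 150 and 165.4 in the controls and 119.4, 119.5 and 100.6 in CAF_CM. Its log2 fold change was -0.50 (SE 0.11, limma adjusted p = 0.00597). Pcdhb10 counted 484.5, 519.3 and 497.2 against 384.1, 419.2 and 389.2, with a log2 fold change of -0.33 (SE 0.07, limma adjusted p = 0.00384). For both genes the treated libraries were all lower, and both stayed called, with Pcdhb20, under every alternative run.

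The other 3 called beta genes had smaller differences, and their calls depended on the setting more than their fold changes did. Pcdhb5, the most abundant clustered gene, counted 889, 949.8 and 975.5 in the controls and 748.6, 843.2 and 810.6 in CAF_CM (log2 fold change -0.23, limma adjusted p = 0.0181). Its adjusted p rose to 0.0763 without control replicate 2 and to 0.0899 without control replicate 3, at fold changes of -0.22 and -0.20. Pcdhb3 counted 335.2, 328.5 and 392.5 against 305.8, 275.2 and 290.4 (log2 fold change -0.27, limma adjusted p = 0.0349). Control replicate 3 was its highest library, and the adjusted p was 0.169 without it, 0.066 and 0.0512 without control replicates 1 and 2, and 0.0665 and 0.0796 without CAF_CM replicates 2 and 3. The fold change lay between -0.19 and -0.32 in these fits, and DESeq2 on the recovered reads of all libraries gave an adjusted p of 0.0538. Pcdhb17 counted 343.9, 335.6 and 321.3 against 286.2, 289.9 and 274.3 (log2 fold change -0.23, limma adjusted p = 0.0325). Its adjusted p was 0.124, 0.108 and 0.0648 without control replicates 1, 2 and 3, 0.0892 without CAF_CM replicate 3, and 0.0935 in DESeq2, at fold changes between -0.21 and -0.26.

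Abundant beta genes were not uniformly lower. Pcdhb16 counted 588.5, 637.6 and 645.8 in the controls and 530.3, 671.8 and 661.6 in CAF_CM, so the groups overlapped (log2 fold change -0.01, 95% interval -0.21 to 0.18). Pcdhb6, another abundant member, had means of 482.5 ± 18.5 and 502.5 ± 29.9 and a log2 fold change of 0.06. The most negative value of the cluster belonged to the low gene Pcdhb1, from 40.67 ± 6.12 to 26.14 ± 7.39 (-0.65, 95% interval -1.17 to -0.12), which missed the threshold.

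In the gamma cluster 1 of 8 tested genes was called (12.5%, beside 34.4% of all genes tested), Pcdhgb2, and the median log2 fold change was 0.10. Pcdhgb2 counted 289.9, 293.8 and 285.7 in the controls, a narrow range, and 324.3, 358.4 and 398.6 in CAF_CM. Every treated library was higher, and the log2 fold change was 0.31 (SE 0.09, limma adjusted p = 0.0182). The call was lost when any of control replicates 1, 2 and 3 was left out (adjusted p = 0.0625, 0.0559 and 0.0666) or CAF_CM replicate 3 (0.074).

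The 3 most abundant gamma genes had overlapping groups. Pcdhgb6 counted 447.9, 451.9 and 464.7 against 452, 509.3 and 546.7. Pcdhgc4 counted 350.6, 400.9 and 409.3 against 314, 436.8 and 406.2. Pcdhgc3 counted 337.1, 324.4 and 347.5 against 322.3, 364.3 and 372.1. Their log2 fold changes were 0.14, -0.02 and 0.07, and none was called. Pcdhgc3 and Pcdhgc4 belong to the C-type genes at the end of the array, which in neurons are regulated apart from the rest.

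No alpha gene was called among 8 tested, beside 34.4% of all genes tested, and the median log2 fold change was 0.14. Pcdha8 counted 211.9, 197.9 and 212.5 in the controls and 172, 277.2 and 239.2 in CAF_CM, so that treated libraries lay on both sides of the controls. Pcdha5 counted 184.9, 158.1 and 161.2 against 120.5, 144.9 and 148.1. It was the only tested alpha gene whose groups did not overlap, and at -0.29 its limma adjusted p was 0.0792. After a correction for length and GC its adjusted p was 0.0171 at -0.37, and with Pcdhb19 and Pcdhb22 it brought the clustered genes called lower from 6 to 9. Pcdha2 counted 93.43, 80.6 and 96.3 against 80.31, 106.7 and 100.6 (log2 fold change 0.08). The intervals in this cluster were wide, reaching a median of 0.42 to either side.

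CAF_CM replicate 1 often had the lowest treated value in these genes. Over the whole table, chi-square per degree of freedom was 14.24 and 9.315 for its pairs with CAF_CM replicates 2 and 3. The pair of replicates 2 and 3 gave 7.802, and the control pairs gave 1.226 to 2.622. All 3 treated libraries thus differed from one another more than the controls did, and these values do not single out replicate 1. How many of all genes had their lowest treated value in replicate 1 was not counted. Among the CAF_CM libraries, replicate 1 had the lowest value for 30 of the 44 tested protocadherins, 7 of 8 alpha, 11 of 22 beta, 7 of 8 gamma and 5 of 6 non-clustered genes. Relative to the control mean, the tested clustered genes averaged -0.25 on the log2 scale in that library, against 0.00 and 0.03 in replicates 2 and 3. For alpha genes the averages were -0.16, 0.37 and 0.23, and for beta genes -0.35, -0.17 and -0.10, so beta genes averaged below control in every treated library. Its depth, 19517839 reads, lay within the range of the other libraries. Without it, Pcdha8 (adjusted p = 0.0261), Pcdhgb6 (0.0248) and Pcdhb2 were called higher beside Pcdhgb2, so that 4 clustered genes were called higher in place of 1, and the median of the clustered genes moved from -0.058 to 0.038.

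Summed over all rows of a cluster, with no filter, the beta genes gave 5343, 5461 and 5576 in the controls and 4509, 5056 and 5004 in CAF_CM. Treated libraries kept 88.9% of the control mean, and the groups did not overlap. The alpha sums were 698.3, 694.8 and 695 in the controls and 568.4, 824.6 and 751.7 in CAF_CM, on both sides of the controls. The gamma sums were 1706, 1788 and 1794 against 1705, 1984 and 2078, and overlapped. The non-clustered genes, which moved in both directions, summed to 1487, 1487 and 1576 against 1555, 1776 and 1751, 112% of the control mean, and overlapped too. The sums are a description with no test, since the family was picked from this contrast, and an exact permutation test of 3 libraries against 3 cannot give a p below 0.1. In bulk RNA, fewer cells using a gene and less RNA per cell cannot be told apart.

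**Figure D3:**
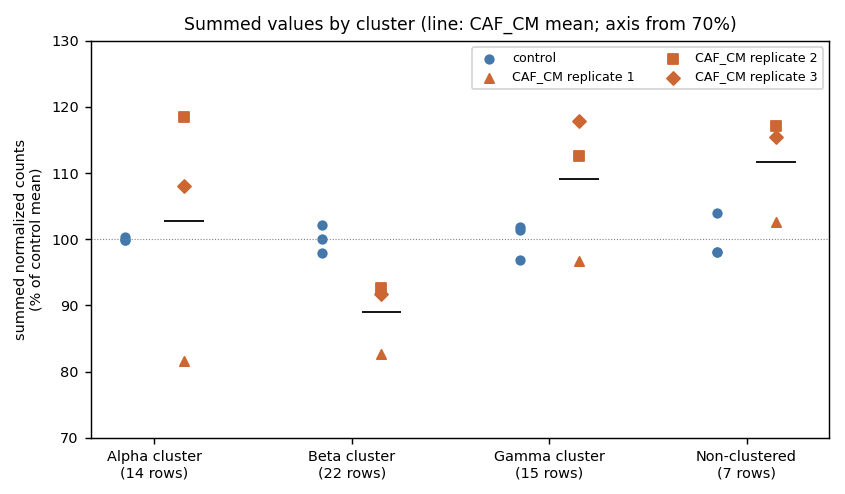
Summed normalized read counts of all rows of each protocadherin class as a percent of the control mean, each point 1 library and each short line the CAF_CM mean (n = 3), on an axis that does not start at 0. The beta sums of CAF_CM lie below all control sums, and CAF_CM replicate 1 gives the lowest alpha sum.

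The order of the genes within a cluster was nearly the same in both groups. In the alpha cluster Pcdha8, Pcdha5 and Pcdha2 together held 66.9% of the summed counts in control and 64.9% in CAF_CM, and in the gamma cluster Pcdhgb6, Pcdhgc4, Pcdhgc3, Pcdhgb2 and Pcdhgb1 held 94.7% and 95.2%. The beta cluster was spread more evenly, with 37.8% and 37.4% in Pcdhb5, Pcdhb16 and Pcdhb10. The largest shift in share within each cluster was that of Pcdha5 (24.1% to 19.5%), Pcdhgb2 (16.5% to 18.8%) and Pcdhb6 (8.84% to 10.4%). Across the genes of a cluster, which are not independent replicates, Spearman's rank correlation between group means was 0.952 for alpha, 0.994 for beta and 0.964 for gamma. Over all genes tested, the correlation between a control and a CAF_CM library reached 0.9908, so a kept order was not particular to these clusters.

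Levels per length varied widely within each cluster. Per kilobase of exonic sequence that no other gene of GENCODE M21 covers, the control means of beta genes ran from 4.35 (Pcdhb8) to 265 (Pcdhb5) with a median of 60.4, and 14 of 22 reached 20. For alpha genes the range was 1.59 (Pcdha7) to 83.7 (Pcdha8), and 4 of 12 reached 20. In the gamma cluster the range was 0.665 (Pcdhgb5) to 185 (Pcdhgc3), and the 5 genes above 20 were Pcdhgc3, Pcdhgb6, Pcdhgc4, Pcdhgb2 and Pcdhgb1. Pcdhb12 has only 1107 such bases and Pcdha4 only 404, with 1 to 9 reads a control library, so their levels per length are uncertain. The 6 A-type gamma genes with a row together held 2.29% of the gamma sum in control, against 54.1% for the 6 B-type and 43.6% for the 3 C-type genes.

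Sequence shared between members bears on these values. Of the 50-base windows of their transcripts, 48.2% to 63.9% recur in other protocadherins for alpha genes and 26.9% to 65.3% for gamma genes, which share constant exons within their cluster. The share is 0% to 12% for beta genes and 0% for non-clustered genes. No source used here says how the authors assigned reads from shared exons, so values of single alpha and gamma genes are uncertain to that extent.

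**Figure D4:**
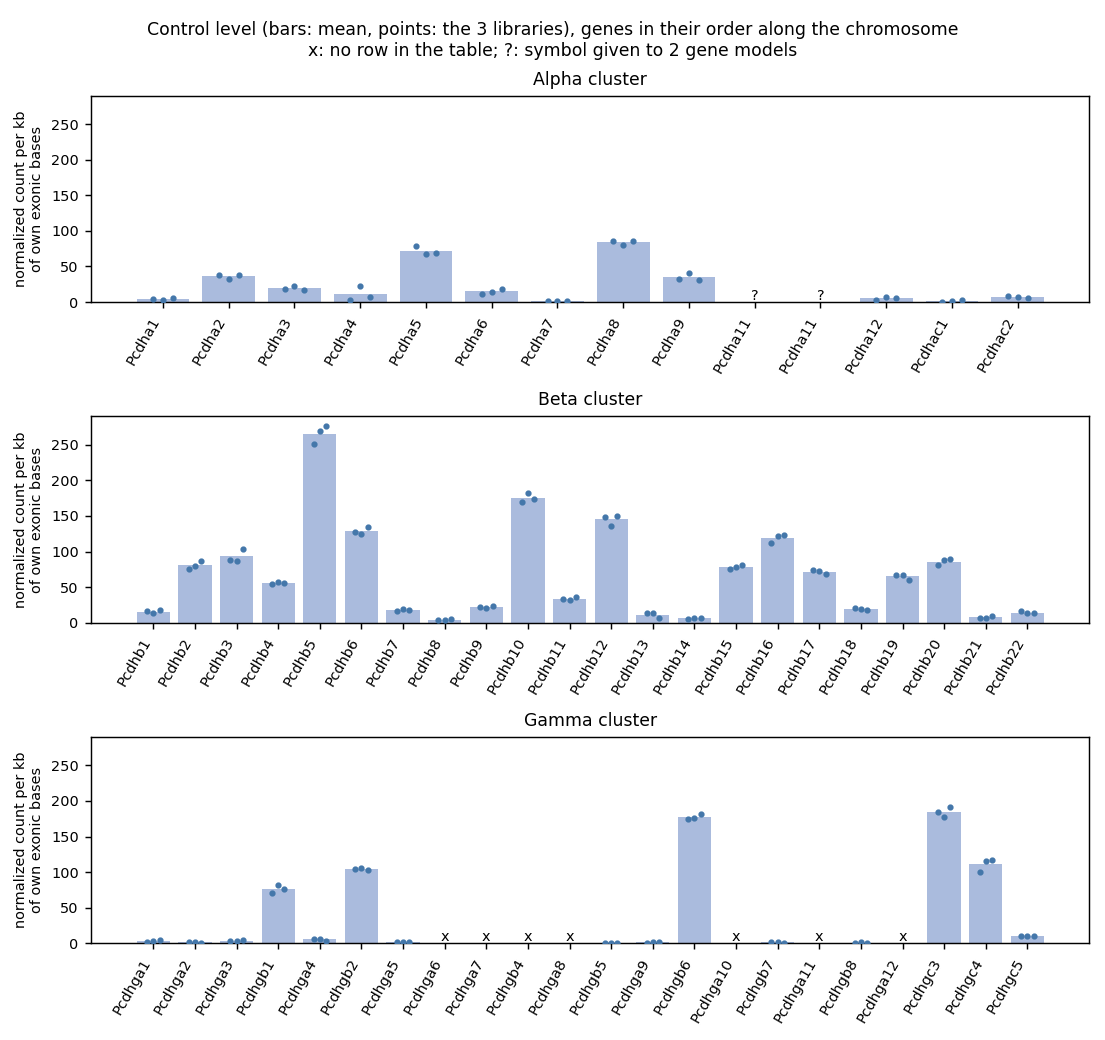
Control level of each clustered protocadherin per kilobase of its own exonic bases, genes in array order, bars the mean and points the 3 control libraries. An x marks a gene with no row, a question mark the symbol shared by 2 rows. Most beta genes exceed 20, while in the gamma array 5 genes do and the A-type genes stay low.

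The 14 untested members were Pcdha1, Pcdha4, Pcdha7, Pcdha11 (a symbol given to 2 rows that cannot be told apart), Pcdhac1, Pcdhga1, Pcdhga2, Pcdhga5, Pcdhgb5, Pcdhga9, Pcdhgb7, Pcdhgb8 and Pcdh19. None exceeded 14 reads in any library, and 4 had a library with 0, which allows up to 3 reads at that depth. A further 7 gamma genes (Pcdhga6, Pcdhga7, Pcdhgb4, Pcdhga8, Pcdhga10, Pcdhga11 and Pcdhga12) and 5 non-clustered genes (Pcdh7, Pcdh11x, Pcdh12, Pcdh17 and Pcdh20) have no row and were not analysed here. The lowest total of any row is 10 reads over the 6 libraries.

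Genes of the machinery that sets promoter choice and silencing in the clusters were called higher in 12 of 27 cases and lower in 1, with a median log2 fold change of 0.13, where 18.3% of all genes were called higher and 16.1% lower. The median absolute change of the list was 0.18, beside 0.19 over all genes tested. Among those called higher were Stag1 and Stag2, the alternative cohesin subunits (0.36 and 0.32), and Tet3, which oxidizes methylcytosine (0.52). Ctcf, the insulator protein, rose by less, 0.18 (limma adjusted p = 0.0276). The loader subunit Mau2 was the gene that fell (-0.20). Beside the same background, 13 of 23 tested genes listed as protocadherin signalling partners were called higher and 1 lower. Their median and median absolute change were both 0.20. The list is wider than proteins that bind the tails and holds, for example, the membrane proteins Nlgn1 and Nlgn2. The kinases Fyn and Src both rose by 0.33 and the WAVE complex subunit Abi2 by 0.39, while Pdcd10 fell (-0.28). Of 8 proteases and gamma-secretase subunits that cleave protocadherins, 3 were called lower, where 16.1% of all genes were, and 1 higher (median -0.11). Psen2 and Ncstn of gamma-secretase fell (-0.41 and -0.21), and the shedding protease Adam10 rose (0.15).

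Markers of the labelled cell type and of others were read beside these results. Of 14 tested acinar markers 6 were called lower and 1 higher (median -0.30), 50% beside 34.4% of all genes tested. The summed level of the list went from between 70128 and 72652 in control to between 39358 and 46032 in CAF_CM. The chymotrypsinogen gene Ctrb1 (-0.93), the elastase gene Cela1 (-0.79) and the acinar transcription factor Rbpjl (-0.83) had the lowest adjusted p of the list. Cpb1 has no row.

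Of 9 tested neuron and glia markers 6 were called higher and 1 lower (median 0.33), 77.8% beside 34.4% of all genes tested. The sum of the list went from 5558 to 5663 in control to 6761 to 7540 in CAF_CM. Tubb3 (1.67), Rbfox3 (1.16) and Elavl3 (0.68) had the lowest adjusted p. Of 3 tested islet markers (66.7% called, beside 34.4% of all genes tested), Neurod1 rose (2.05) and Chga fell (-0.44). The sums were 31095 to 31497 in control and 22429 to 24256 in CAF_CM. Nearly all of these sums was Chga, with means of 3.123e+04 in control and 2.304e+04 in CAF_CM. Ins1, Ins2, Sst and Iapp have no row, and Gcg was not tested. The part of either list in the protocadherin values was not tested.

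Fibroblast markers summed to 4395 to 4512 in control and 4195 to 4488 in CAF_CM. Of 8 tested (25% called, beside 34.4% of all genes tested), Col1a2 rose (0.48) and Dcn fell (-0.93), and Col3a1, Lum and Fap have no row. Leukocyte markers summed to 95 to 107 and 63 to 100, with 5 of 8 absent from the rows, and endothelial markers to 197 to 226 and 158 to 191. Only 1 leukocyte marker, Cd68, and 2 endothelial markers, Tek and Pecam1, were tested, and none of the 3 was called.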

How the data were processed

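Total RNA of 3 control and 3 CAF_CM libraries was sequenced after Illumina TruSeq preparation, per the labels' protocols. FastQC, DESeq2 and hg19, a human build, are named in the submitters' processing notes, although the table has mouse symbols. Aligner, counter and mouse build: not given in the sources used here. The deposited signal is a read count divided by 1 factor per library. Dividing each value by the worth of 1 read (0.949 to 1.05) gave whole reads for 100% of values (tolerance 0.001 read). Of 20764 rows, 168 have no symbol (0.153% to 0.261% of reads) and stayed out.

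Tests were run in R 4.3.3 with limma 3.58.1 and a variance trend, taking log2(value + 1) over genes with at least 10 in at least 3 libraries. The pseudocount understates changes of low genes. edgeR 4.0.16 and DESeq2 1.42.0 on recovered reads, other scalings, pseudocounts and filters, and leaving out each library served as alternatives. The fitting script was tested on simulated data.

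The protocadherins and all gene lists were chosen with earlier results of these data known. Values per library are given for every called member and the 3 tested members of highest mean per class. Of other lists, up to 3 called genes by lowest adjusted p are named, or the 2 of highest mean where none was called. Ctcf, Mau2, Pdcd10, Cdh23, Rnf14, Pcdhb1 and Pcdhb6 were added after their values were seen.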

Additional observations from a re-analysis of the deposited data

How the results depend on the processing

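Under 18 alternatives, Pcdh1, Pcdh10, Pcdh9, Pcdh15, Pcdhb10, Pcdhb12 and Pcdhb20 stayed called in the same direction. Leaving out 1 library at a time, which also leaves fewer samples, gave between 1868 and 3509 genes called higher and between 1659 and 2943 called lower over the whole table, in both cases fewest without control replicate 1. Clustered protocadherins called higher then numbered 0 to 4, those called lower 3 to 7 (3 without control replicate 2 or 3), and non-clustered ones called lower 1 to 2. With no filter on low values Pcdh19 entered, and the median log2 fold change of the non-clustered genes was 0.537. Changes of sign touched genes that were not called. With 1 library left out, Pcdha8 ranged from -0.03 to 0.31, Pcdhb16 from -0.07 to 0.10 and Pcdhgc4 from -0.11 to 0.13. Pcdha2 was at -0.01 after a correction for length and GC. Their cause was not tested. Replicate numbers are shared by both groups, and no label says whether they pair the libraries. Deviations from the group means correlated at 0.0703, 0.0291 and 0.0305 between same-number libraries, and at -0.0457 to 0.0174 between the others. Correlations this small cannot decide whether the libraries are paired. With the replicate number as a block, 12 protocadherins were called, all 12 of them shared with the fit without it, and 3166 genes were called higher and 2755 lower. The filter on low values left 14 members untested, none with more than 14 reads in a library.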

Other observations

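Other cadherin families are given as values. Of 15 tested type I and II cadherins and catenins, 3 were called higher and 2 lower (median log2 fold change 0.07). The share called was 33.3%, beside 34.4% of all genes tested. The neural catenins Ctnnd2 and Ctnna2 rose (0.42 and 0.52), and E-cadherin, Cdh1, fell (-0.64, limma adjusted p = 0.00277), from 613 ± 36.3 to 398.8 ± 90.5 (SD, n = 3). Of 11 large and atypical cadherins 3 (27.3%) were called lower, where 16.1% of all genes tested were, and 0 higher. The 3 were Clstn3 (-0.28), Fat1 (-0.46) and Celsr1 (-0.63). Of 5 tested desmosomal genes 1 (20%) was called, Pkp4 (0.34).

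Genes that stand beside the clustered arrays were called lower in 6 of 21 cases and higher in 1 (median -0.07). The share called, 33.3%, was near the 34.4% of all genes tested. Apbb3 (-0.58), Hars2 (-0.38) and Ndfip1 (-0.27) had the lowest adjusted p among them, and Rnf14 was the gene of this list called higher (0.29). Pcdh1 (0.80), whose row follows those of the gamma genes among the protocadherins, was counted as non-clustered and is not in this list.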
